A study of Homo sapiens with 54 samples.

Results

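SUM1315 is an established BRCA1-mutant triple-negative breast cancer cell line. In these cells the change that cisplatin (CDDP) made on top of the PARP inhibitor olaparib was measured across all expressed genes, as 3 libraries given olaparib at 8 µM with CDDP at 4 µM (olaparib/CDDP) against 3 libraries given olaparib at 8 µM alone. These 6 of the 54 libraries of the study were chosen by their treatment labels and by no measured value. The study's libraries cover 18 conditions of 3 libraries each, in which cell lines with and without acquired resistance to olaparib received CDDP, olaparib or both, and gene expression was read by 3′ mRNA sequencing. A further 5 SUM1315 conditions are used below for comparison. The parental line was left untreated, was given 4 µM CDDP alone, or was given olaparib with a lower CDDP dose of 2 µM. The olaparib-resistant derivative (OlaR) was given 4 µM CDDP or none. OlaR cells were selected as 1 population under rising olaparib and kept in medium with 25 µM olaparib, so that their control carries the inhibitor too. Treatment lasted about 12 hours, described as overnight.

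CDDP forms platinum crosslinks on DNA that block replication forks and transcribing RNA polymerase. Crosslinks are removed by nucleotide excision repair and, once a fork has stalled, by the Fanconi anemia and homologous recombination pathways, in which BRCA1 acts. PARP enzymes mark single-strand breaks with poly(ADP-ribose), and olaparib blocks them and holds PARP-1 on DNA. DNA damage can also activate the transcription factor NF-κB, whose targets include chemokines, cytokines and inhibitors of apoptosis, and it can activate the stress kinases that act on AP-1 and ATF factors.

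Levels below are the deposited adjusted read counts, in which each library was brought by its authors to a common library size, always listed in the order of replicates 1, 2 and 3. The 6 libraries held 5532381 to 7157852 recovered reads, and the 10 most abundant genes took 6.67 to 7.91% of them. Correlations of log2 levels were 0.979 to 0.9852 between replicates and 0.9655 to 0.9717 between the conditions. The third olaparib library stood farther from the other two of its group (chi-square per degree of freedom 8.727 and 8.747) than those did from each other (2.904), and without it 136 genes were called higher and 72 lower in the comparison described next. PGR, ESR1 and ERBB2, the receptors a triple-negative line lacks, were low, with PGR at or below 1.88, ESR1 at or below 12.2 and ERBB2 between 18.7 and 47.9 in every library. CDH1, an epithelial cadherin, was listed at 0 in all 6 libraries, EPCAM was at 0 in the 3 olaparib/CDDP libraries, and the mesenchymal filament gene VIM was abundant. The immune markers CD3E and LYZ were at 0 in all 6 libraries, and the summed level of the immune markers ran from 56.9 to 84.3 with olaparib/CDDP and from 62.5 to 72 with olaparib. No marker was called, but the epithelial keratin gene KRT8 read 76.5, 91.5 and 81.9 with olaparib and 52.7, 35.9 and 41.4 with olaparib/CDDP (log2 fold change -0.94, adjusted p = 0.045 by limma), below the limit on fold change. The sum of the 7 epithelial markers ran from 1178 to 1218 with olaparib and from 1141 to 1148 with olaparib/CDDP, and the part of this in the results below was not tested.

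CDDP added to olaparib changed 173 of 13133 genes tested, 111 upward (0.845% of genes tested) and 62 downward (0.472%). Chemokines, cytokines, NF-κB feedback genes, stress-response genes and DNA replication genes stood among those that rose, while the genes that fell held many very long genes and the iron storage gene FTH1. A gene was called at an adjusted p of 0.05 or less (limma, Benjamini-Hochberg over all genes tested) with a change of at least 2-fold, and fold changes refer to log2(adjusted read count + 1). The median log2 fold change was 1.29 for the genes that rose and -1.45 for those that fell (the same with FHIT, at 0 in the olaparib/CDDP libraries, set to its bound), and 33 genes (16 higher, 17 lower) changed at least 4-fold. Without the limit on fold change 1108 genes passed, 571 upward and 537 downward. Of the 13133, 6337 had a positive log2 fold change. In 107 of the 111 and 60 of the 62 the libraries of the groups did not overlap, which was also so for 13.8% (above) and 14.4% (below) of all genes tested. The count of genes that fell was the less stable, at 32 without the first olaparib library and 37 without the second. Nothing states that the 3 libraries of a group came from separate cultures, so p-values rest on a spread between libraries. That spread was estimated from all 27 SUM1315 libraries in 9 conditions, and not from the 6 compared alone. With only the compared conditions in the fit 130 genes were called, 118 of them among the 173. In such bulk RNA fewer cells of a state and less RNA per cell cannot be told apart.

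**Figure D1:**
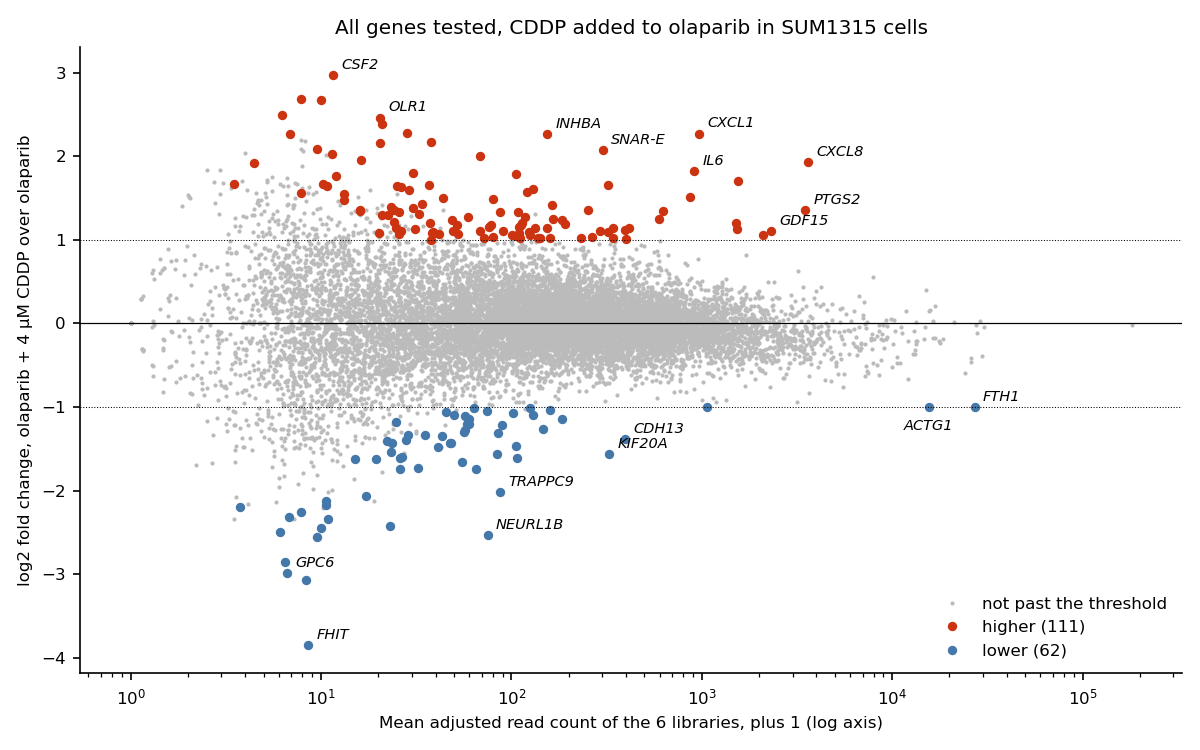
log2 fold change of each of the 13133 genes tested (vertical axis) against the mean adjusted read count of the 6 libraries plus 1 (log axis), with the 111 genes called higher in red, the 62 called lower in blue and the remainder in grey. CXCL8, CXCL1 and PTGS2 stand apart among abundant genes that rose, FTH1 and ACTG1 are the most abundant genes called lower, and FHIT, at 0 in all 3 olaparib/CDDP libraries, lies lowest.

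The chemokine genes were the list with the highest median change. Of 11 chemokines tested, 6 rose and none fell, with a median log2 fold change of 1.14 against -0.01 over all genes tested. CXCL1, a neutrophil-attracting ligand of CXCR2, had the smallest p of the whole comparison, with adjusted read counts of 314, 329.7 and 351 with olaparib and 1586, 1623 and 1606 with olaparib/CDDP (log2 fold change 2.27 ± 0.11, adjusted p = 3.5e-16). Its 6 values fell into 2 tight, well separated groups, a 4.84-fold difference. CXCL8 (interleukin 8), another CXCR2 ligand and the most abundant chemokine here, read 1601, 1710.3 and 1181 with olaparib and 6744, 5603 and 4735 with olaparib/CDDP (log2 fold change 1.93 ± 0.15, adjusted p = 2.1e-11). For CXCL3, close in sequence to CXCL1, the levels were 756, 766 and 639.5 with olaparib and 2764, 2319 and 2027 with olaparib/CDDP (log2 fold change 1.71 ± 0.12, adjusted p = 8.7e-12). CXCL2, the other close relative, reached 814, 1118 and 824 with olaparib and 2119, 2119.9 and 2050.1 with olaparib/CDDP (log2 fold change 1.2 ± 0.17, adjusted p = 6.8e-06). Reads from such near-identical paralogs could be split between them by the authors' counting. CX3CL1, the membrane-bound ligand of CX3CR1, read 79.1, 91.9 and 115 with olaparib and 202, 214 and 212 with olaparib/CDDP (log2 fold change 1.14 ± 0.19, adjusted p = 0.0001), and CCL20, the ligand of CCR6, read 73.5, 109.9 and 81.9 with olaparib and 283, 222 and 206 with olaparib/CDDP (log2 fold change 1.42 ± 0.28, adjusted p = 0.0011). In each of these 6 genes every olaparib/CDDP library lay above every olaparib library. The ligands of CXCR3 behaved otherwise: CXCL10 read 1073, 1064 and 1167 with olaparib and 1191, 1408 and 1455 with olaparib/CDDP (log2 fold change 0.29 ± 0.15, adjusted p = 0.25) and CXCL11 read 1767, 2081 and 1779 with olaparib and 1794, 1719.8 and 1630.4 with olaparib/CDDP (log2 fold change -0.13 ± 0.10, adjusted p = 0.49), neither past the test. The count was 6 whichever of the 6 libraries was left out.

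Among 18 cytokine genes tested, 3 rose and none fell (median 0.77). Relative to untreated cells the list's median log2 difference was -0.53 with olaparib, 0.00 with olaparib/CDDP and 0.65 with 4 µM CDDP alone. IL6, which signals through gp130 to STAT3, read 369.7, 527 and 317 with olaparib and 1571, 1439.6 and 1219 with olaparib/CDDP (log2 fold change 1.82 ± 0.26, adjusted p = 1.7e-05). LIF, of the same cytokine family, read 63.4, 94 and 50 with olaparib and 193, 135 and 142 with olaparib/CDDP (log2 fold change 1.2 ± 0.34, adjusted p = 0.026), and its adjusted p rose above 0.05 without replicate 1 or replicate 3 of either group, to at most 0.11. CSF2, which encodes the myeloid growth factor GM-CSF, was close to undetected with olaparib, at 0.903, 0.774 and 4, and read 19.9, 16.9 and 20.8 with olaparib/CDDP (log2 fold change 2.97 ± 0.63, adjusted p = 0.0021). The most abundant cytokine gene, CSF3, which encodes the neutrophil growth factor G-CSF, read 2597, 2404 and 2541 with olaparib and 4172, 3806 and 3671 with olaparib/CDDP, a 1.54-fold difference that passed the adjusted p (3.2e-05) but not the limit on fold change. IL32 likewise read 1013, 972 and 1168 with olaparib and 1385, 1436 and 1439.8 with olaparib/CDDP (log2 fold change 0.44 ± 0.11, adjusted p = 0.011), and its adjusted p was 0.057 and 0.07 without the first or the second olaparib library. INHBA, which encodes the activin A subunit of the TGF-β family, read 54.2, 59.1 and 43 with olaparib and 217, 278 and 269 with olaparib/CDDP (log2 fold change 2.27 ± 0.12, adjusted p = 4.2e-15), a 4.83-fold rise and the second smallest p. PTGS2, the inducible cyclooxygenase that starts prostaglandin synthesis, read 2065, 2149 and 1668 with olaparib and 4812, 4664 and 5528 with olaparib/CDDP (log2 fold change 1.36 ± 0.09, adjusted p = 1.1e-12). Neither gene had any overlap between the groups.

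**Figure D2:**
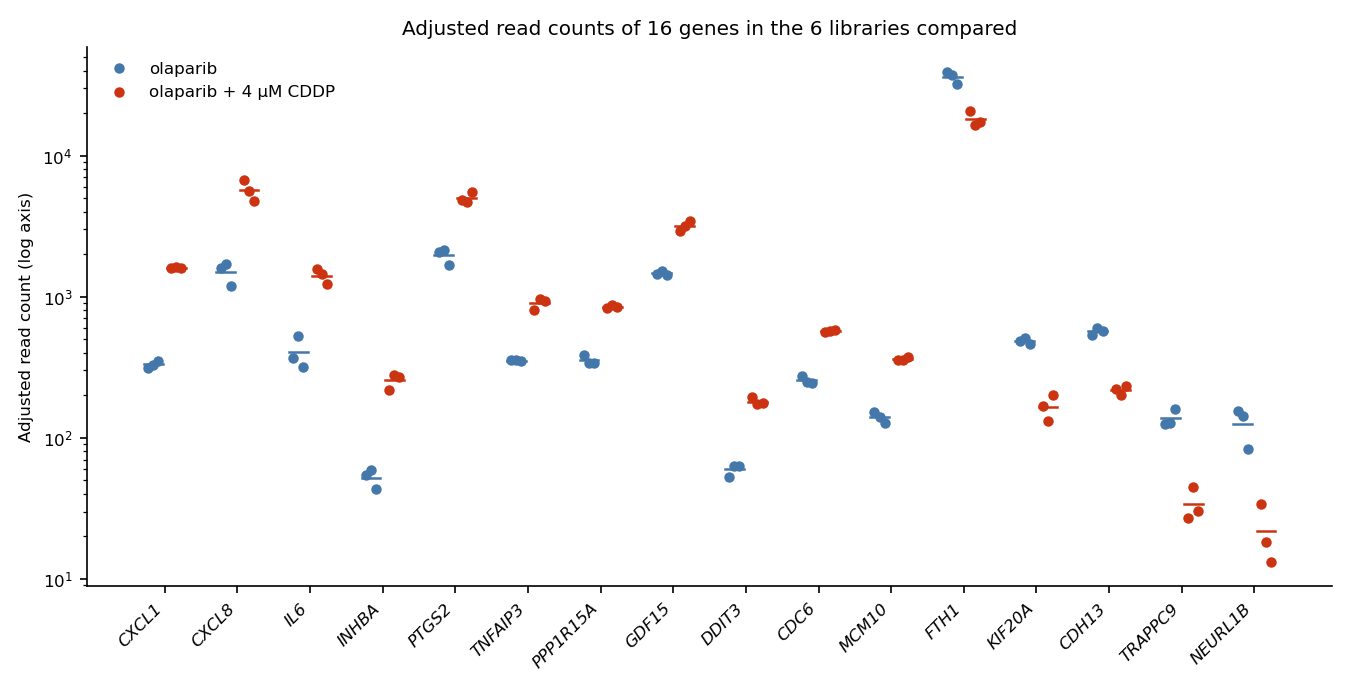
Adjusted read counts (log axis) of 16 genes in the 3 olaparib libraries (blue) and the 3 olaparib/CDDP libraries (red), points for libraries and bars for group means. The groups do not overlap in any of the 16, the first 11 genes being higher and the last 5 lower with CDDP.

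The κB element, the site bound by NF-κB dimers, lies close to the start of several genes that rose. The 250 bases before the RefSeq start (GRCh38.p14) are shown for 3 genes that hold one, CXCL1 at chr4:73869143-73869392 (plus strand), IL6 at chr7:22726950-22727199 (plus strand) and TNFAIP3 at chr6:137867009-137867258 (plus strand), each 5′ to 3′ with κB matches in capitals.
CXCL1: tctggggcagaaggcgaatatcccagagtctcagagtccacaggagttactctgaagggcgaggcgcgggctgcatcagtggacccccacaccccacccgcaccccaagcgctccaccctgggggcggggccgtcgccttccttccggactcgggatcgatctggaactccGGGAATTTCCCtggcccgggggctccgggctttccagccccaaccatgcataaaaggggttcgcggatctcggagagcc
IL6: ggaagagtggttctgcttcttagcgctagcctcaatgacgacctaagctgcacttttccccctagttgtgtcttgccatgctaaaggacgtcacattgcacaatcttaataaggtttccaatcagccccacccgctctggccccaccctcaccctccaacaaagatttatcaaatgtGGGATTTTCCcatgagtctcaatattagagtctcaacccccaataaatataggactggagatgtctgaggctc
TNFAIP3: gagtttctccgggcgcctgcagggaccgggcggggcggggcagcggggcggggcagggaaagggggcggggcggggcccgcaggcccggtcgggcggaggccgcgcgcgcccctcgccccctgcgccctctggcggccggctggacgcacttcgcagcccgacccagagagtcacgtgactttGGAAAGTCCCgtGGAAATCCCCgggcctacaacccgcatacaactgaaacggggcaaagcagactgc
In CXCL1 the match covers bases 79 to 69 before the start, counted as overlapping matches on both strands, in IL6 bases 73 to 64, and in TNFAIP3 it occurs at 67 to 58 and again at 55 to 46. Both strands were searched, and 5.05% of all 27305 promoters of that length hold a κB match, as do 5.94% of the 10297 promoters of genes tested. A further 3 genes are shown for other elements, CXCL8 at chr4:73740319-73740568 (plus strand) for AP-1 (TGANTCA), PPP1R15A at chr19:48872171-48872420 (plus strand) for the cyclic AMP response element (TGACGTCA), which ATF factors bind, and UHRF1 at chr19:4909251-4909500 (plus strand) for the E2F site (TTTCCCGC or TTTGGCGC), with the match in capitals, which in UHRF1 lies on the minus strand.
CXCL8: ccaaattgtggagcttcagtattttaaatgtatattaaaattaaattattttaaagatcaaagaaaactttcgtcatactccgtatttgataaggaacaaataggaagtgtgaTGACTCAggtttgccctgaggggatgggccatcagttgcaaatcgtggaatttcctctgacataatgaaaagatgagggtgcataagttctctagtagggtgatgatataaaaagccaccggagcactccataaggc
PPP1R15A: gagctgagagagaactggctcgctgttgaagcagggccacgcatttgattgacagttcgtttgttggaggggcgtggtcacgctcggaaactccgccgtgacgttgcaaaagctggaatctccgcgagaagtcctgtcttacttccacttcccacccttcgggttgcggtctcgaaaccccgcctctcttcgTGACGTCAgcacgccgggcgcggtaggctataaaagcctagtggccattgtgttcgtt
UHRF1: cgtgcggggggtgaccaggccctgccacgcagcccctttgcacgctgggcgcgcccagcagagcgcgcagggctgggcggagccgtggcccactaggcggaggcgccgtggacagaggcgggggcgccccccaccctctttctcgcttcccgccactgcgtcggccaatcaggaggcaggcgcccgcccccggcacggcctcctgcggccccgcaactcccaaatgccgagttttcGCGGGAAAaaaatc
AP-1 matches are held by 6.6% of all promoters, the cyclic AMP response element by 1.77% and the E2F sites by 1.96%. Among promoters of genes tested the shares are 4.0, 3.04 and 3.19%. The promoters shown were chosen because they hold a match, and those of INHBA, PTGS2 and TRAF1, which also rose, hold none of these motifs. The share of the genes that rose with each motif is left out as void, because only 79 of the 111 had a promoter in the table. A match is a description of the letters present and not a measured binding site.

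Feedback genes of NF-κB were also among those that rose. Of 30 regulators and targets tested, 3 rose, none fell, and 26 had a positive log2 fold change (6337 of all 13133 genes tested). Their median was 0.34. TNFAIP3 (A20), the ubiquitin-editing enzyme that shuts NF-κB signaling off and that carries 2 κB matches above, read 353, 354 and 348 with olaparib and 800.4, 968 and 933 with olaparib/CDDP (log2 fold change 1.35 ± 0.10, adjusted p = 2.7e-11). The apoptosis inhibitor BIRC3 (cIAP2) read 404, 449.9 and 491 with olaparib and 1270.1, 1309.9 and 1257 with olaparib/CDDP (log2 fold change 1.51 ± 0.13, adjusted p = 1.7e-10). TRAF1, the adaptor that joins TNF receptors to cIAP proteins, read 23.7, 7.26 and 11 with olaparib and 70.5, 53.9 and 55.7 with olaparib/CDDP (log2 fold change 2.17 ± 0.34, adjusted p = 5.3e-05), although it overlaps PHF19 in the annotation. All 3 were separate between the groups. SOD2, the mitochondrial superoxide dismutase and the second most abundant of the list, went the other way at 11369.9, 12223 and 11663 with olaparib and 9131, 7567 and 7859 with olaparib/CDDP (log2 fold change -0.53, adjusted p = 0.0064, below the limit on fold change), and IER3, the most abundant, read 14782, 14188 and 10238 with olaparib and 16629, 15751 and 18749.9 with olaparib/CDDP (adjusted p = 0.08). Of 15 genes of the TNF receptor superfamily and its ligands, TNFRSF9 (4-1BB), a costimulatory receptor, was the only one called, at 158, 183 and 178 with olaparib and 331, 359 and 376 with olaparib/CDDP (log2 fold change 1.04 ± 0.20, adjusted p = 0.00094), while TNFRSF1A, the main receptor for TNF, read 1442, 1409.5 and 1309 with olaparib and 921, 909.7 and 855 with olaparib/CDDP (log2 fold change -0.63, adjusted p = 0.00016). The count of this list of receptors and ligands was 0 without the first olaparib library and 3 without the second. TNFRSF10B, a TRAIL receptor, read 656, 821 and 674 with olaparib and 699, 777 and 697 with olaparib/CDDP (adjusted p = 0.95).

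A few genes of the integrated stress response rose. Of 24 ATF4-linked genes tested, 4 rose and none fell (median 0.14). ATF4 itself (log2 fold change -0.09) and the list members ASNS (0.31), CHAC1 (0.19), TRIB3 (0.42) and PSAT1 (0.03) were not called. Measured from untreated cells, the list's median log2 difference was -0.81 with olaparib, -0.52 with olaparib/CDDP and -0.40 with 4 µM CDDP alone. These values share the untreated libraries, and the list's median with olaparib/CDDP thus stayed below the untreated level. DDIT3 (CHOP), a transcription factor that promotes death after prolonged stress, read 53.1, 63.2 and 63 with olaparib and 193, 172 and 175 with olaparib/CDDP (log2 fold change 1.58 ± 0.21, adjusted p = 3.7e-06). ATF3, induced by many kinds of stress, read 60.6, 67.3 and 74.9 with olaparib and 165, 163 and 168 with olaparib/CDDP (log2 fold change 1.28 ± 0.18, adjusted p = 1.1e-05). PPP1R15A (GADD34), which directs dephosphorylation of eIF2α and whose promoter is printed above, read 385, 336 and 339.8 with olaparib and 827, 866 and 839 with olaparib/CDDP (log2 fold change 1.25 ± 0.10, adjusted p = 2.9e-11). GDF15, a secreted stress cytokine of the TGF-β family, was the most abundant of the 4 at 1455, 1527 and 1415 with olaparib and 2902, 3156 and 3435 with olaparib/CDDP (log2 fold change 1.11 ± 0.09, adjusted p = 2.9e-10). The count was 4 whichever library was left out. DDIT4, an inhibitor of mTORC1 on the same list, read 3804, 3841 and 3388 with olaparib and 3119, 2769 and 2541 with olaparib/CDDP (log2 fold change -0.39, adjusted p = 0.039), and CEBPB, its most abundant member, read 5072, 5378 and 3798 with olaparib and 5379, 4697 and 4485 with olaparib/CDDP (adjusted p = 0.89).

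AP-1 and other immediate early genes had 6 members called higher of 25 tested and none lower (median 0.51). ATF3, described above, is on this list too. Relative to untreated cells the list's median log2 difference was -0.57 with olaparib, -0.12 with olaparib/CDDP and 0.20 with 4 µM CDDP alone. MAFF, a small MAF factor whose locus overlaps TMEM184B, read 215, 218 and 183 with olaparib and 398, 480.1 and 441 with olaparib/CDDP (log2 fold change 1.09 ± 0.12, adjusted p = 1.1e-07), and the nuclear receptor NR4A2 read 76.5, 102 and 68.9 with olaparib and 182, 167 and 194 with olaparib/CDDP (log2 fold change 1.14 ± 0.19, adjusted p = 0.00013). CTGF, which encodes a matricellular growth factor, read 10.3, 6.72 and 6.99 with olaparib and 25.8, 18.3 and 21.6 with olaparib/CDDP (log2 fold change 1.35 ± 0.30, adjusted p = 0.0034). EGR2 (19.6, 23.3 and 12 with olaparib and 44.7, 40.8 and 50.6 with olaparib/CDDP, adjusted p = 0.042) and NR4A1 (30.3, 9.79 and 11 with olaparib and 30.8, 37.6 and 32.4 with olaparib/CDDP, adjusted p = 0.048) were close to the threshold. EGR2 lost it whichever library was left out (adjusted p at most 0.16, without the third olaparib library), and NR4A1 lost it without any library other than the first olaparib one (at most 0.24, without the second). The highest members in level did not pass, JUND at 2220.0, 2242 and 1734 with olaparib and 2538, 2129 and 2257 with olaparib/CDDP (adjusted p = 0.46) and JUNB at 3282, 3263 and 2256 with olaparib and 2492, 2565 and 2626 with olaparib/CDDP (adjusted p = 0.45).

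MAP kinase feedback genes had 2 of 18 members called higher (median 0.32), a count that was 1 without the third and 4 without the second olaparib library. Relative to untreated cells the list's median log2 difference was -0.74 with olaparib, -0.02 with olaparib/CDDP and 0.24 with 4 µM CDDP alone. DUSP1, a phosphatase that inactivates p38 and JNK, read 198, 229 and 133 with olaparib and 421, 402 and 363 with olaparib/CDDP (log2 fold change 1.11 ± 0.18, adjusted p = 0.00011). DUSP10, a phosphatase of the same kinases, read 18.9, 7.35 and 11 with olaparib and 37.7, 34.6 and 42.5 with olaparib/CDDP (log2 fold change 1.64 ± 0.35, adjusted p = 0.0027). DUSP4, a nuclear phosphatase of ERK, differed by 1.38-fold at 853, 861 and 744 with olaparib and 1164, 1124 and 1103 with olaparib/CDDP (adjusted p = 0.00035), and DUSP6, which acts on ERK in the cytoplasm, read 2984, 3205 and 2945 with olaparib and 3208, 3265 and 3541 with olaparib/CDDP (adjusted p = 0.44).

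Among 25 p53 target genes 3 rose and none fell (median 0.18). The paper states that the TNBC lines it used, SUM1315 among them, all carry mutant p53. Whether p53 had a part in these rises was not tested. AEN, an apoptosis-linked exonuclease, read 104, 104 and 143 with olaparib and 260.2, 268 and 264 with olaparib/CDDP (log2 fold change 1.19 ± 0.14, adjusted p = 6.3e-07). PMAIP1 (NOXA), a BH3-only protein that antagonizes MCL1, read 233, 231 and 286 with olaparib and 479, 554 and 595 with olaparib/CDDP (log2 fold change 1.11 ± 0.13, adjusted p = 4.4e-07), and GDF15, above, is the third. CDKN1A, the p21 inhibitor of cyclin-dependent kinases, differed by 1.36-fold at 1035, 996 and 1032 with olaparib and 1392, 1344 and 1429 with olaparib/CDDP (adjusted p = 0.00055), and MDM2, the ubiquitin ligase for p53, did not pass at 668, 674 and 773 with olaparib and 863, 873 and 798 with olaparib/CDDP (adjusted p = 0.13). PMAIP1 was also the only one of 15 BCL2 family genes called. Its partner MCL1 read 4024, 4105 and 3299 with olaparib and 3056, 2858 and 3219 with olaparib/CDDP (adjusted p = 0.12) and the BH3-only gene BID read 748, 750.3 and 915 with olaparib and 741, 759 and 654 with olaparib/CDDP (adjusted p = 0.4).

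Genes of DNA replication showed small rises in most members. Of 30 E2F and replication genes tested, 3 were called higher and none lower. At an adjusted p of 0.05 or less 17 had a positive change (571 of all 13133 genes tested). The log2 fold change was positive in 28 (6337 of all 13133), with a median of 0.54. CDC6, which loads the MCM helicase at origins, read 276, 248 and 246 with olaparib and 558, 566 and 576 with olaparib/CDDP (log2 fold change 1.14 ± 0.09, adjusted p = 4e-11). MCM10, which acts in helicase activation, read 152, 139.7 and 128 with olaparib and 356, 356 and 371 with olaparib/CDDP (log2 fold change 1.36 ± 0.15, adjusted p = 7.5e-08). UHRF1, the hemimethylated DNA reader that recruits DNMT1 and whose E2F match is printed above, read 15.7, 28.4 and 27 with olaparib and 63.6, 59.6 and 33.6 with olaparib/CDDP (log2 fold change 1.10 ± 0.35, adjusted p = 0.046), and its adjusted p rose above 0.05 without replicate 1 or 2 of either group, to at most 0.24. RRM1, the large subunit of ribonucleotide reductase, read 1887, 1981 and 1773 with olaparib and 2078, 2137 and 2218 with olaparib/CDDP (adjusted p = 0.29), and cyclin D1, CCND1, read 2199, 2211 and 2850.0 with olaparib and 1888, 1976 and 1951 with olaparib/CDDP (log2 fold change -0.31, adjusted p = 0.038).

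Homologous recombination and Fanconi anemia genes had 2 of 33 members called higher. A positive change at an adjusted p of 0.05 or less was found in 11 (571 of all 13133 genes tested). The log2 fold change was positive in 30 (6337 of all 13133), with a median of 0.46. BLM, the helicase that dissolves double Holliday junctions, read 73.7, 92.5 and 75.9 with olaparib and 143, 177 and 188 with olaparib/CDDP (log2 fold change 1.06 ± 0.17, adjusted p = 0.00011). EXO1, a nuclease of end resection, read 87.2, 72.4 and 59 with olaparib and 148, 141 and 154 with olaparib/CDDP (log2 fold change 1.03 ± 0.21, adjusted p = 0.0013). Both lay just past 2-fold, and the count was 0 without the third and 4 without the first olaparib/CDDP library. PSMC3IP, a cofactor of strand exchange that overlaps MLX, was among the largest rises of all at 2.7, 8.67 and 7.99 with olaparib and 15.9, 37.7 and 43.6 with olaparib/CDDP (log2 fold change 2.17 ± 0.40, adjusted p = 0.0005). RBBP8 (CtIP) read 559, 558 and 759 with olaparib and 724, 858 and 684 with olaparib/CDDP (adjusted p = 0.17) and RAD50 read 1211, 1217 and 1929.6 with olaparib and 1282, 2014 and 1519.7 with olaparib/CDDP (adjusted p = 0.68). Of 21 PARP and base excision repair genes, of 21 nucleotide excision repair and translesion genes and of 10 platinum transport genes, none were called. PARP1, the main target of olaparib, read 1394, 1329 and 1277 with olaparib and 1534, 1506 and 1488 with olaparib/CDDP (log2 fold change 0.18, adjusted p = 0.22). SLC31A1, the copper transporter linked to platinum uptake, read 425, 375 and 429 with olaparib and 383, 448 and 446 with olaparib/CDDP (adjusted p = 0.86), and ABCC3, an efflux pump, read 240.1, 252 and 241 with olaparib and 236, 192 and 222 with olaparib/CDDP (adjusted p = 0.59).

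In this comparison G2/M genes did not follow the replication genes. Of 30 tested, KIF20A was called lower and none higher, and the median was -0.19. The adjusted p was passed by 7 with a negative change and 1 with a positive one (537 and 571 of all 13133 genes tested). Relative to untreated cells the G2/M median was 0.98 with olaparib, 0.82 with olaparib/CDDP and 0.90 with CDDP alone. In the same order the replication list had 0.20, 0.82 and 1.34. With CDDP alone 11 of the 30 G2/M genes were called higher (7.24% of all genes tested). KIF20A, a mitotic kinesin needed for cytokinesis, read 486, 511 and 458 with olaparib and 167, 131 and 199.6 with olaparib/CDDP (log2 fold change -1.56 ± 0.21, adjusted p = 3.8e-06), with every olaparib/CDDP library below every olaparib library, and it overlaps CDC23 in the annotation. CDC25B, the phosphatase that activates CDK1, read 3798, 3766 and 3777 with olaparib and 3110.3, 2956 and 3221 with olaparib/CDDP (log2 fold change -0.29, adjusted p = 0.024), and TOP2A, topoisomerase II, read 14028, 14239 and 14633 with olaparib and 11290.1, 12978 and 12833 with olaparib/CDDP (adjusted p = 0.21). The list's count of genes called lower was 2 without the third olaparib library.

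The lists with no or few calls bound what else moved. None of 33 interferon-stimulated genes was called, though 7 passed the adjusted p upward and 3 downward (571 and 537 of all 13133 genes tested). Their median was 0.38, and 24 of the 33 were positive. With CDDP alone 17 of the 33 were called higher (7.24% of all genes tested), with a median of 1.12. Among those that passed downward on olaparib, against the direction of most members, were IFITM1 at 3809, 3648 and 4329 with olaparib and 2996, 2776 and 2787 with olaparib/CDDP (log2 fold change -0.46, adjusted p = 0.00023) and IFITM3 at 8557, 8565 and 8995 with olaparib and 7031, 6996 and 7137 with olaparib/CDDP (adjusted p = 0.048). NRF2 targets, which handle oxidants and iron, had a median of -0.32, with 14 of 16 negative. Over all 13133 genes tested 6337 were positive. Of the 16 targets, 8 passed the adjusted p downward and none upward (537 and 571 over all genes tested). Relative to untreated cells the median of these targets was 0.68 with olaparib, 0.10 with olaparib/CDDP and 0.11 with CDDP alone. The list was thus above the untreated level with olaparib and near it with olaparib/CDDP. FTH1, the ferritin heavy chain that stores iron, was the member called lower and read 39368, 37050.2 and 32005 with olaparib and 20599, 16351 and 17244 with olaparib/CDDP (log2 fold change -1.0 ± 0.20, adjusted p = 0.0012), just at 2-fold, so that the call was lost without either the first or second olaparib library or replicate 2 or 3 of olaparib/CDDP. FTL, the light chain, read 6776, 6483 and 7229 with olaparib and 6513, 6416 and 5492 with olaparib/CDDP (adjusted p = 0.3), and the quinone reductase NQO1 read 3769, 4077 and 3780.3 with olaparib and 3266, 3008 and 2869 with olaparib/CDDP (log2 fold change -0.35, adjusted p = 0.0066). Metallothioneins, which bind metals, had 0 of 3 called, with MT2A at 33484, 33441 and 34326 with olaparib and 26484, 26246 and 24566 with olaparib/CDDP (log2 fold change -0.39, adjusted p = 0.0013) and MT1E at 1677, 1579 and 1564 with olaparib and 1447, 1375 and 1258 with olaparib/CDDP (adjusted p = 0.26). Among 15 keratinocyte and S100 genes, LCN2 (lipocalin 2, which binds siderophores) was called higher at 42.8, 48.4 and 65 with olaparib and 102, 101 and 115 with olaparib/CDDP (log2 fold change 1.03 ± 0.18, adjusted p = 0.00022), a call just past 2-fold that was lost without either the first or second olaparib library or the third olaparib/CDDP library. S100A9, a subunit of calprotectin, read 16178, 14808 and 13372 with olaparib and 10609, 8673 and 8808 with olaparib/CDDP (log2 fold change -0.66, adjusted p = 0.00045), and S100A2 read 10577, 10253 and 8449 with olaparib and 7204, 6619 and 6783 with olaparib/CDDP (log2 fold change -0.50, adjusted p = 0.0005).

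Among 15 TGF-β, BMP and ID genes, INHBA, described above, and BAMBI, a decoy receptor, were called higher (median 0.00). BAMBI read 6.49, 6.72 and 11 with olaparib and 20.8, 28.6 and 16.9 with olaparib/CDDP (log2 fold change 1.35 ± 0.42, adjusted p = 0.042), and it lost the adjusted p without either the first or second olaparib library or any of the olaparib/CDDP libraries, reaching 0.17. ID1, an inhibitor of helix-loop-helix factors, read 2530.2, 2614 and 1875 with olaparib and 1744, 1366 and 1302 with olaparib/CDDP (log2 fold change -0.67, adjusted p = 0.007), and TGFBI read 2765, 2933 and 3580.5 with olaparib and 2512, 2893 and 2762 with olaparib/CDDP (adjusted p = 0.36). No member of the 12 heat shock genes (median -0.09), the 22 cholesterol synthesis genes (median 0.00) or the 26 clustered histone genes tested (median 0.27) was called. HSPA5 (BiP), the endoplasmic reticulum chaperone, read 3607, 3695 and 3582 with olaparib and 2752, 3059.8 and 3236 with olaparib/CDDP (log2 fold change -0.27, adjusted p = 0.038), and HIST1H4C, a histone H4 gene, read 7192, 6439.6 and 5699 with olaparib and 10240.5, 8484 and 9601 with olaparib/CDDP (log2 fold change 0.55, adjusted p = 0.0014). Of the 111 genes that rose 34 belonged to a list, and of the 62 that fell 2 did.

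**Figure D3:**
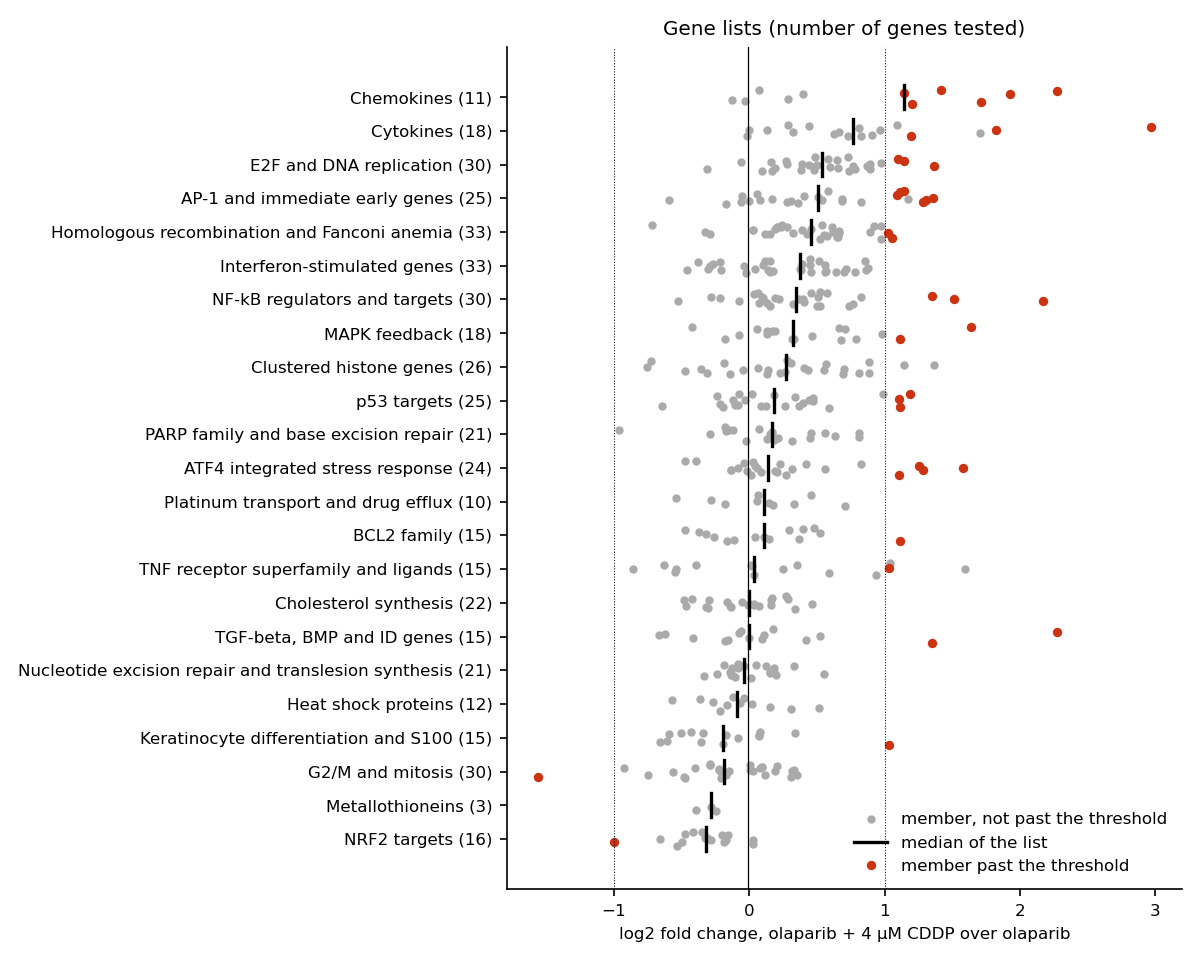
log2 fold changes of the members of 23 gene lists (horizontal axis), with members past the threshold in red, others in grey, the list median as a black bar and the number of genes tested in brackets. Chemokines (median 1.14) and cytokines (0.77) lie highest and NRF2 targets (-0.32) lowest, against a median of -0.01 for all genes tested (thin vertical line).

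Several of the largest rises fell in no list. OLR1, a scavenger receptor for oxidized lipoprotein, read 2.72, 5.07 and 8.99 with olaparib and 37.7, 24.1 and 38 with olaparib/CDDP (log2 fold change 2.46 ± 0.43, adjusted p = 0.00023), and it overlaps TMEM52B. DMBT1, a secreted scavenger receptor of mucosal defense, read 4.63, 4.13 and 8.99 with olaparib and 34.8, 35 and 31.4 with olaparib/CDDP (log2 fold change 2.39 ± 0.35, adjusted p = 1.7e-05). OSBP2, an oxysterol-binding protein, read 8.35, 18.5 and 3 with olaparib and 58.6, 46.8 and 28.3 with olaparib/CDDP (log2 fold change 2.28 ± 0.38, adjusted p = 0.00017). These were low-count genes, and the rule by which they were named required that their libraries did not overlap. SNAR-E, a small noncoding RNA of a multicopy family and therefore uncertain in its assignment, read 112, 85.9 and 155 with olaparib and 502, 441 and 514 with olaparib/CDDP (log2 fold change 2.08 ± 0.25, adjusted p = 7.2e-07). C11orf96, an uncharacterized gene, read 42.5, 20 and 20 with olaparib and 118, 95.7 and 107 with olaparib/CDDP (log2 fold change 2.01 ± 0.35, adjusted p = 0.00027). SCARNA18, a small Cajal body RNA that overlaps TMEM167A, read 1.75, 10.6 and 6 with olaparib and 17.9, 16.4 and 38.4 with olaparib/CDDP (log2 fold change 1.95 ± 0.51, adjusted p = 0.014), and its adjusted p was 0.14 without the first olaparib library and 0.1 without the third olaparib/CDDP library.

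Of the 62 genes that fell, NEURL1B had the largest fall of those with a mean level of at least 20 in a condition and no overlap. NEURL1B, a ubiquitin ligase of the Notch pathway, read 155, 142 and 82.9 with olaparib and 33.8, 18.3 and 13.2 with olaparib/CDDP (log2 fold change -2.54 ± 0.35, adjusted p = 8.4e-06), a 5.81-fold fall. C10orf11 read 29.7, 35.7 and 46 with olaparib and 6.95, 11.4 and 2.52 with olaparib/CDDP (log2 fold change -2.42 ± 0.59, adjusted p = 0.0081) and TRHDE, a peptidase that degrades thyrotropin-releasing hormone and overlaps TRHDE-AS1, read 18.5, 26.4 and 36 with olaparib and 7.95, 3.67 and 5.38 with olaparib/CDDP (log2 fold change -2.07 ± 0.60, adjusted p = 0.027). CDH13, a cadherin anchored by a lipid tail and overlapping LOC101928446, had the smallest p of the genes that fell at 536, 601 and 575 with olaparib and 222, 201 and 233 with olaparib/CDDP (log2 fold change -1.38 ± 0.15, adjusted p = 5.5e-08). TRAPPC9, a subunit of a trafficking complex, read 126, 127 and 161 with olaparib and 26.8, 44.4 and 30.5 with olaparib/CDDP (log2 fold change -2.02 ± 0.40, adjusted p = 0.0011), and SORCS2, a sorting receptor, read 197, 172 and 114 with olaparib and 53.6, 38.7 and 62.5 with olaparib/CDDP (log2 fold change -1.61 ± 0.38, adjusted p = 0.006). TENM1, a teneurin adhesion protein, read 102, 90.9 and 106 with olaparib and 31.8, 28.7 and 26.9 with olaparib/CDDP (log2 fold change -1.74 ± 0.43, adjusted p = 0.0084), ARSB, a lysosomal sulfatase, read 79.4, 96.1 and 66.9 with olaparib and 42.7, 26.3 and 13 with olaparib/CDDP (log2 fold change -1.66 ± 0.39, adjusted p = 0.0058), and ADGRL3, an adhesion G protein-coupled receptor, read 44.1, 45.6 and 23 with olaparib and 20.9, 6.44 and 9.8 with olaparib/CDDP (log2 fold change -1.61 ± 0.42, adjusted p = 0.012). RALGPS1 (log2 fold change -1.74 ± 0.52, adjusted p = 0.03), the ephrin receptor EPHB3 (log2 fold change -1.62 ± 0.46, adjusted p = 0.022) and the antisense genes TOLLIP-AS1 (log2 fold change -1.73 ± 0.52, adjusted p = 0.032) and ZNF674-AS1 (log2 fold change -1.60 ± 0.44, adjusted p = 0.018) complete the 12 largest falls. Whether strand was used in counting is not given in the sources used here, so reads of an antisense gene and its partner cannot be told apart.

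Several of these falls lost the adjusted p when 1 library was left out. The adjusted p of RALGPS1 was above 0.05 without any library other than the second olaparib/CDDP one (at most 0.15). That of TRHDE was so without replicate 2 or 3 of either group (at most 0.12) and that of EPHB3 without replicate 1 or 2 of either group (at most 0.11). TOLLIP-AS1 exceeded 0.05 without replicate 1 or 3 of olaparib or replicate 3 of olaparib/CDDP (at most 0.25), and ADGRL3 without replicate 1 or 2 of olaparib or replicate 2 or 3 of olaparib/CDDP (at most 0.1). ZNF674-AS1 exceeded it without replicate 1 of olaparib (0.065) or replicate 2 of olaparib/CDDP (0.15), and ARSB (0.072) and C10orf11 (0.075) without replicate 3 of olaparib/CDDP. NEURL1B, TRAPPC9, SORCS2, TENM1, CDH13 and KIF20A kept an adjusted p of 0.05 or less whichever library was left out.

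The genes that fell held many long ones. Of 175 genes tested that span at least 500 kb from start to end in RefSeq, 15 fell (8.57%, against 0.472% of all genes tested) and none rose, and the median log2 fold change of all 175 was -0.30. In the bins under 10 kb, 10 to 50 kb, 50 to 100 kb, 100 to 200 kb and 200 to 500 kb the share that fell was 0.476, 0.31, 0.0947, 0.278 and 1.2%. The counts behind these shares were small, and the bin under 10 kb held 14 genes that fell, or 5 without the first olaparib library and 9 without the second. The 17 of the 10 to 50 kb bin became 7 and 6 without those libraries and 11 without the third olaparib/CDDP library, the 2 of the 50 to 100 kb bin became 1 to 4, the 9 of the 200 to 500 kb bin became 5 without either the first or the second olaparib library, and the 15 of the longest bin became 11 to 14 with 1 library left out. CDH13 spans 1170.0 kb, TRHDE 583 kb, TRAPPC9 731 kb, ADGRL3 878 kb, TENM1 828 kb, SORCS2 550.0 kb and C10orf11 1130.0 kb. The genes that fell had a median span of 42.4 kb, those that rose 15.8 kb, and all genes tested 29.4 kb.

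The bin of longest genes was also low where no library was shared. With 4 µM CDDP alone against untreated cells 62.3% of the 175 genes were called lower (8.16% of all genes tested) with a median log2 fold change of -1.46, and in OlaR cells 46.3% were (2.89% of all genes tested) with a median of -1.08. Measured from untreated cells, the median of the 175 was -0.30 with olaparib alone, -0.44 with olaparib and 2 µM CDDP and -0.63 with olaparib and 4 µM CDDP, values that share the untreated libraries.

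**Figure D4:**
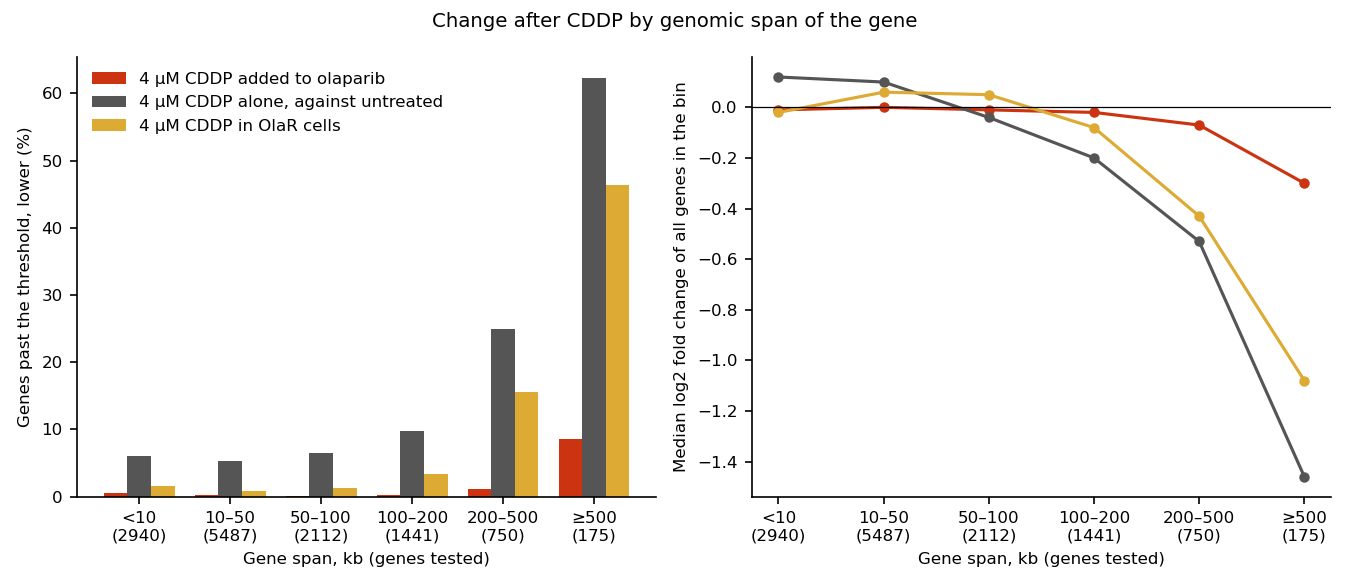
Left, percentage of genes called lower by genomic span (bars, axis from 0), and right, the median log2 fold change of all genes in each span bin, for 4 µM CDDP added to olaparib (red), alone against untreated cells (grey) and in OlaR cells (yellow). The share rises in the bin of at least 500 kb in each, to 8.57, 62.3 and 46.3%.

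Raising CDDP from 2 to 4 µM in the presence of olaparib gave 22 calls, 20 higher (0.152% of genes tested) and 2 lower (0.0152%), 13 of them also called against olaparib alone. Both comparisons share the 3 olaparib/CDDP libraries. INHBA read 97, 85.4 and 88.5 at 2 µM and 217, 278 and 269 at 4 µM (log2 difference 1.48 ± 0.12, adjusted p = 8.7e-10). CXCL1 read 622, 641 and 704 at 2 µM (1.29 ± 0.11, adjusted p = 1.4e-09), between the levels of olaparib alone and of the higher dose. PTGS2 read 2291, 2225 and 2438 at 2 µM and 4812, 4664 and 5528 at 4 µM (1.11 ± 0.09, adjusted p = 8.7e-10), and most of its rise lay between the 2 doses. The chemokine genes CXCL2, CXCL3, CXCL8 and CCL20 and the cytokine genes IL6, LIF and CSF2 were also among the 20. CXCL8 read 2081, 1517 and 2291 at 2 µM (1.54 ± 0.15, adjusted p = 1.3e-08) and IL6 571, 253 and 611 (1.65 ± 0.26, adjusted p = 0.00038). The fall of NEURL1B was graded, with 81.7, 52.8 and 55.2 at 2 µM (-1.57 ± 0.35, adjusted p = 0.019). The count of 22 moved to 12 without the second and 39 without the third library at 2 µM, to 13 without the first library at 4 µM, and to 8 when only these 2 conditions were fitted.

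Set side by side against the same olaparib libraries, 14 of the 111 genes that rose were called higher at 2 µM (0.312% of genes tested) and 4 of the 62 that fell were called lower (0.183%). By the direct test of 4 against 2 µM, 12 of the 111 and 1 of the 62 were called. The median log2 fold changes of the 111 were 0.69 at 2 µM and 1.29 at 4 µM, and those of the 62 were -0.77 and -1.45. These genes were selected for a large change at 4 µM against the same olaparib libraries, which in large part fixes the smaller values at 2 µM.

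CDDP alone, against untreated cells, gave more calls, 951 genes higher (7.24% of genes tested) and 1071 lower (8.16%), in libraries separate from those of the olaparib comparison. Of the 111 genes that rose on olaparib, 60 (54.1%) were also called higher with CDDP alone and 2 were called lower. Of the 62 that fell, 39 (62.9%) were also called lower and none higher. The 60 are 6.31% of the 951, and the 39 are 3.64% of the 1071. The change itself differed with and without olaparib for 2827 genes (21.5% of genes tested) at an adjusted p of 0.05 or less.

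The differences could be followed in the levels. Those given here are of genes named for their change on olaparib, which in part sets the direction of their differences. CXCL1 read 604, 702 and 423 in untreated cells and 3602, 4045 and 3582 with CDDP alone (log2 fold change 2.73 ± 0.11, adjusted p = 2.2e-19), so that its rise was smaller on olaparib by 0.45 log2 units (difference -0.45 ± 0.16, adjusted p = 0.036). CXCL8 read 4340.1, 4702 and 3536 untreated and 7617, 9797 and 9185 with CDDP alone, and its change was larger on olaparib (difference 0.85 ± 0.21, adjusted p = 0.0028). INHBA read 239, 288 and 217 untreated and 789.9, 691 and 690.3 with CDDP alone, also a smaller change than on olaparib (difference 0.72 ± 0.17, adjusted p = 0.0025). Its olaparib/CDDP level, 217, 278 and 269, thus lay near the untreated one, and its olaparib level, 54.2, 59.1 and 43, lay well below. GDF15 changed in opposite directions, from 7652, 7875 and 8931 untreated to 4991, 5109 and 5062 with CDDP alone (log2 fold change -0.69 ± 0.09, adjusted p = 3.6e-07) against a rise on olaparib (difference 1.79 ± 0.13, adjusted p = 1.3e-11). KIF20A, which fell on olaparib, read 120.3, 165 and 94.4 untreated and 145, 190.4 and 187 with CDDP alone (difference -2.05 ± 0.29, adjusted p = 3.9e-06). EXO1 had the larger rise without olaparib, from 36.3, 29 and 15.7 to 244, 235 and 224 (difference -2.12 ± 0.29, adjusted p = 2.3e-06), and CDC6 likewise, from 322, 319.8 and 329.9 to 978, 1029.7 and 898 (difference -0.43 ± 0.13, adjusted p = 0.013). TRAPPC9 read 129, 109.8 and 109.7 untreated and 5.11, 0.833 and 3.55 with CDDP alone, a deeper fall than on olaparib (difference 2.96 ± 0.56, adjusted p = 0.00022).

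The smallest p of this difference among genes with a mean of at least 20 in a condition belonged to TIMP3, MT1E and NEAT1. TIMP3, a metalloproteinase inhibitor, read 13993, 13683 and 13531 untreated, 1778, 1742 and 1721 with CDDP alone, 3388, 3369.6 and 3023 with olaparib and 2024, 2054 and 2135 with olaparib/CDDP (difference 2.32 ± 0.12, adjusted p = 7.4e-15). MT1E, a metallothionein, rose with CDDP alone from 166, 167 and 92.4 to 1130.1, 1140.1 and 1122 and on olaparib read 1677, 1579 and 1564 without and 1447, 1375 and 1258 with CDDP (difference -3.28 ± 0.18, adjusted p = 7.4e-15). NEAT1, the noncoding RNA that scaffolds paraspeckles, read 8597, 8589.7 and 9845 untreated, 1349.9, 1292 and 1253 with CDDP alone, 4022, 4318 and 4203 with olaparib and 1972, 2229 and 2341 with olaparib/CDDP (difference 1.85 ± 0.12, adjusted p = 6.8e-13). In each of the 3 the olaparib libraries, which received no CDDP, stood apart from the untreated ones.

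**Figure D5:**
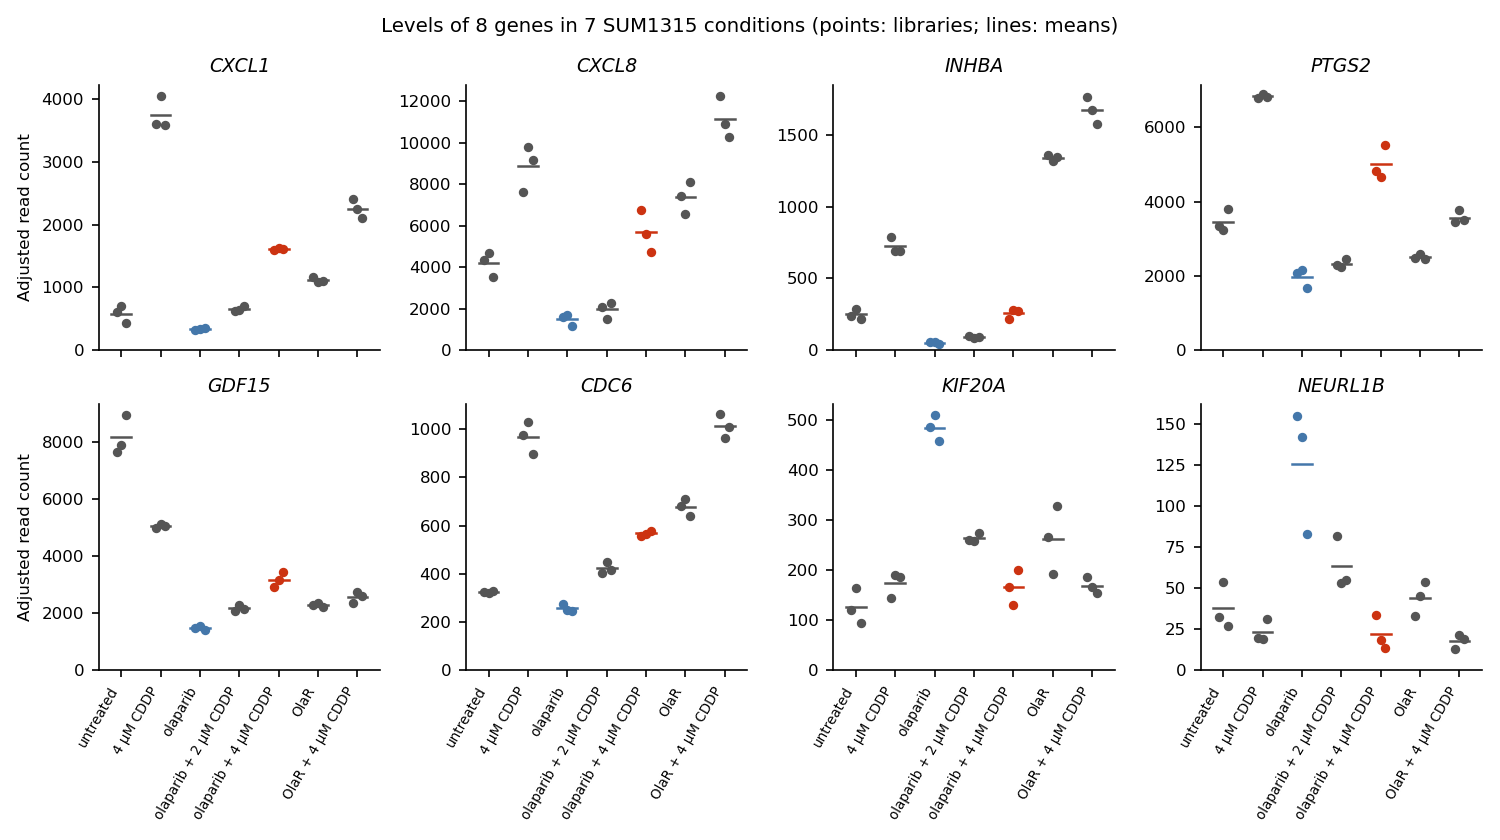
Adjusted read counts (vertical axes from 0, one scale per gene) of 8 genes in 7 SUM1315 conditions, points for libraries and bars for means, with olaparib in blue, olaparib/CDDP in red and other conditions in grey. CXCL1 and CXCL8 step up from 2 to 4 µM CDDP on olaparib, GDF15 is lower with CDDP alone than untreated, and KIF20A is highest with olaparib alone among the parental conditions shown.

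OlaR cells, whose control is also in olaparib, gave 122 genes higher (0.929% of genes tested) and 380 lower (2.89%) after 4 µM CDDP, again in separate libraries. Of the 111 genes that rose in parental cells on olaparib, 10 (9.01%) were called higher in OlaR cells and 3 lower, and 82 (73.9%) had a positive change, against 50.1% of all genes tested. Of the 62 that fell, 22 (35.5%) were called lower and 2 higher. The change differed between the cells for 841 genes (6.4% of genes tested) at an adjusted p of 0.05 or less. Of the 6 chemokine genes that rose in parental cells, CXCL1, CXCL3, CXCL8 and CX3CL1 changed less in OlaR cells by this test. CXCL1 read 1169.7, 1089 and 1093 without and 2399.7, 2255 and 2097 with CDDP (log2 fold change 1.01 ± 0.11, adjusted p = 4.7e-08), less than in parental cells by 1.27 (OlaR minus parental -1.27 ± 0.16, adjusted p = 4.1e-06). CXCL8 read 7429.6, 6569 and 8095 without and 12265, 10931 and 10292 with CDDP (OlaR minus parental -1.33 ± 0.21, adjusted p = 0.0001), and CX3CL1 read 77.7, 67.6 and 83.6 and 59.8, 102 and 88.3 (OlaR minus parental -1.05 ± 0.26, adjusted p = 0.013).

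INHBA, SNAR-E and HIST1H4C had the smallest p of this difference at a mean of at least 20 in a condition. INHBA read 1359, 1321 and 1346 without and 1766, 1672 and 1578 with CDDP in OlaR cells (OlaR minus parental -1.96 ± 0.17, adjusted p = 5.4e-09). SNAR-E, of uncertain assignment, fell there from 2129.9, 1883 and 1674 to 413, 491 and 624 (OlaR minus parental -3.98 ± 0.35, adjusted p = 5.4e-09), opposite to its rise in parental cells. HIST1H4C went there from 12676, 12568 and 12229 to 5609, 6789 and 7154 (OlaR minus parental -1.50 ± 0.16, adjusted p = 3.1e-07). The genes BIRC3 and CCL20 had log2 fold changes of 1.05 and 1.36 in OlaR cells, and TNFAIP3 one of 0.57 (OlaR minus parental -0.78 ± 0.15, adjusted p = 0.00092). Libraries of OlaR cells were shallower, at 3446613 to 4665505 reads, than the 6 parental ones, and the part of depth in these differences was not tested.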

How the data were processed

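Messenger RNA of 54 libraries, 27 of them from SUM1315 cells in 9 conditions, was sequenced by the authors with a 3′ mRNA kit (QuantSeq, forward), in batches of 27 that are not assigned to libraries in the sources used here. Per the labels and the study's methods, the processing used CASAVA 1.8.2, FastQC, STAR, HTSeq and edgeR against hg38. The deposited table holds 27470 genes with a signal per library, namely read counts that the authors adjusted to a common library size with edgeR and that are not whole numbers. By inverting that adjustment (common dispersion 0.01039), whole reads were recovered for all 1483380 values, with a largest relative difference of 4.0e-09 when adjusted again. Deposited fold changes, CPM values and p-values of the authors' own comparisons were not used.

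The 13133 genes that reached 10 adjusted reads in 3 or more of the 27 SUM1315 libraries were tested in R 4.3.3 with limma 3.58.1 (empirical Bayes with trend) on log2(adjusted read count + 1), with condition as the only factor and Benjamini-Hochberg adjustment. The authors tested counts with edgeR, whereas limma was used here because the values are not counts, and edgeR 4.0.16, DESeq2 1.42.0 and limma-voom on the recovered reads served as alternatives. A call needed an adjusted p of 0.05 or less and a change of at least 2-fold, and tests of a difference between changes had no limit on size. Errors after ± are standard errors of the fit. Scripts were tested on simulated data.

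The comparison, its 23 gene lists and the rules were chosen with earlier results of these data known. Genes named are the 12 largest rises and falls among called genes with separate libraries and a mean of at least 20 in the higher condition, the 3 smallest p in each direction, the called members of the lists, up to 2 uncalled members per list with the highest level, BIRC3, TRAF1 and CCL20 as a base, and the 3 smallest p in the dose step and in each difference. All others named were chosen after their values were seen, as was the E2F motif. Spans and promoters are from RefSeq (GRCh38.p14), matched by symbol for 25188 names as they stand and 1196 older names, and 25 names had been turned into dates. With libraries of 3446613 to 7157852 reads in the conditions used, genes with at most 3 reads in every library of a condition are given as reads and without a fold. Replicate numbers did not pair the libraries (correlations of deviations 0.048, -0.088 and -0.025 over 10938 genes), and no pair of libraries agreed within sampling noise.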

Additional observations from a re-analysis of the deposited data

Results flagged for a closer look

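The results below are those in which the change made by CDDP on olaparib differed from the change in another setting, by the test of the difference itself (limma, adjusted p of 0.05 or less). With against without olaparib, 2827 genes differed, and these included 22 of the genes that were called or had the smallest p of that difference. Positive values are log2 differences of changes in favor of olaparib-treated cells. They were positive for TRAPPC9 (2.96), TIMP3 (2.32), NEAT1 (1.85), GDF15 (1.79), SORCS2 (1.78), EGR2 (1.62), CDH13 (0.97), DDIT3 (0.94), MAFF (0.92), AEN (0.90), CXCL8 (0.85), PPP1R15A (0.80), INHBA (0.72) and PTGS2 (0.37). They were negative for MT1E (-3.28), EXO1 (-2.12), KIF20A (-2.05), NEURL1B (-1.89), MCM10 (-0.99), LCN2 (-0.96), CXCL1 (-0.45) and CDC6 (-0.43). TRAPPC9, SORCS2, CDH13, TIMP3 and NEAT1 fell further with CDDP alone than on olaparib, and the stress genes DDIT3, PPP1R15A, MAFF, AEN and EGR2 had the more positive change on olaparib. The changes start from different baselines, so a more positive change need not mean a higher level. Relative to untreated cells the ATF4-linked list had medians of -0.81 with olaparib, -0.52 with olaparib/CDDP and -0.40 with CDDP alone. In the same order the AP-1 list had -0.57, -0.12 and 0.20. Apart from TIMP3, MT1E and NEAT1, the genes listed were picked for their change on olaparib. The direction of their differences is thus in part set by the choice.

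Between OlaR and olaparib-treated parental cells 841 genes differed, 24 of them among those named by the same rules. The OlaR change minus the parental change was negative for SNAR-E (-3.98), DMBT1 (-2.68), OLR1 (-2.50), OSBP2 (-2.12), INHBA (-1.96), PSMC3IP (-1.93), HIST1H4C (-1.50), CXCL8 (-1.33), CXCL1 (-1.27), LCN2 (-1.18), CX3CL1 (-1.05), DDIT3 (-0.97), GDF15 (-0.94), PTGS2 (-0.85), CXCL3 (-0.84), MCM10 (-0.84), DUSP1 (-0.83), TNFAIP3 (-0.78), PPP1R15A (-0.65) and CDC6 (-0.56). It was positive for ADGRL3 (2.82), ZNF674-AS1 (2.57), TOLLIP-AS1 (2.36) and KIF20A (0.96), genes that fell in parental cells. Most of the genes with a negative value had risen in parental cells, where they were picked for that rise, so the direction of these differences is in part set by the choice.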

How the results depend on the processing

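The 173 calls ranged from 130 to 201 over 9 other settings, 175 and 170 with pseudocounts of 0.5 and 5, 174 without the filter on low values (97 higher, 77 lower), 130 with only the compared conditions in the fit, 174 with median-of-ratios scaling, 201 with limma-voom, 185 with edgeR and 198 with DESeq2, and 172 with the replicate block, whose numbers share no origin. Of the 173, 161 were shared with edgeR, 160 with DESeq2 and 122 with the fit without a filter. Leaving out 1 library gave 124 to 208 calls, 88 to 136 higher and 32 to 72 lower. Without the limit on fold change there were 1108 (571 higher, 537 lower), and 33 (16 higher, 17 lower) at a log2 change of at least 2. The dose step moved from 22 to 8 with only its conditions, 106 without the limit, 6 at a log2 change of at least 2 and 12 to 39 with 1 library left out, and it was 20 with the replicate block. The difference with against without olaparib went from 2827 to 1060 at a log2 size of at least 1, to 2774 with the replicate block and to 2295 to 2942 with 1 library left out, and that of OlaR cells from 841 to 335, 846 and 563 to 719. The share of genes lower whatever the p at a log2 change under -1 was 2.72% under 10 kb and 20% at 500 kb and over.

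Among 105 named genes, 1447 of 1575 alternative values kept direction and side of the threshold, and 0 of the 57 called genes changed sign, while 14 lost the adjusted p with a library left out and 13 under another setting. Signs reversed, with a library left out, for 5 uncalled genes near 0, whose log2 fold changes then ranged from -0.02 to 0.38 for RAD50, -0.01 to 0.13 for SLC31A1, -0.11 to 0.14 for CEBPB, -0.08 to 0.19 for HSP90AA1 and -0.04 to 0.12 for TNFRSF10B. Of the uncalled genes given with an adjusted p of 0.05 or less, HSPA5, CDC25B, IFITM3, CCND1, DDIT4, ID1 and IL32 exceeded it with some library left out. List counts that moved over 1.5 times are given beside each list. The share of motifs over the genes that rose, also computed with another window, is void and left out because only 79 of 111 promoters matched. The cause of these changes was not tested.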

Other observations

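Several genes that belong to no list and fell outside the naming rule were chosen after their values were seen. DTL, the substrate receptor of the CRL4 ligase that degrades CDT1, read 148, 159 and 153 with olaparib and 424, 537 and 509.8 with olaparib/CDDP (log2 fold change 1.66 ± 0.12, adjusted p = 8.7e-12). ORC6, of the origin recognition complex, read 176, 182 and 283 with olaparib and 461, 481 and 451 with olaparib/CDDP (log2 fold change 1.15 ± 0.18, adjusted p = 6.5e-05), CHAF1A, a histone chaperone of replication, read 220.4, 191 and 263 with olaparib and 466, 469 and 427 with olaparib/CDDP (log2 fold change 1.02 ± 0.13, adjusted p = 1.2e-06), and CDC25A, a phosphatase of S phase entry, read 96.1, 97.8 and 117 with olaparib and 182, 195 and 266 with olaparib/CDDP (log2 fold change 1.03 ± 0.17, adjusted p = 0.00012). POLQ, the polymerase of microhomology-mediated end joining, read 63.4, 71.7 and 71.9 with olaparib and 123, 153 and 171 with olaparib/CDDP (log2 fold change 1.09 ± 0.23, adjusted p = 0.0019). All 5 were separate between the groups, and all 5 were also called higher with CDDP alone.

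A further 5 genes outside the lists were likewise chosen after their values were seen. HBEGF, a ligand of the EGF receptor, read 115, 95 and 116 with olaparib and 218, 267 and 291 with olaparib/CDDP (log2 fold change 1.24 ± 0.14, adjusted p = 2.4e-07), while with CDDP alone its log2 fold change was -0.19 (adjusted p = 0.29). IL7R, the interleukin 7 receptor, read 53.1, 56.9 and 72 with olaparib and 179, 142 and 143 with olaparib/CDDP (log2 fold change 1.34 ± 0.25, adjusted p = 0.00056), IL20, a cytokine of the interleukin 10 family, read 23.8, 61 and 70 with olaparib and 145, 114 and 104 with olaparib/CDDP (log2 fold change 1.34 ± 0.23, adjusted p = 0.00027), and CD274, which encodes PD-L1, read 10.1, 20.6 and 23 with olaparib and 39.7, 41.4 and 63.6 with olaparib/CDDP (log2 fold change 1.43 ± 0.35, adjusted p = 0.0089). SNHG1, the noncoding host of several small nucleolar RNAs, read 1029.8, 994 and 843 with olaparib and 2130.1, 1913 and 2224 with olaparib/CDDP (log2 fold change 1.13 ± 0.12, adjusted p = 4.4e-08), and it had a log2 fold change of -0.17 with CDDP alone (adjusted p = 0.24). Its reads cannot be told apart from those of SNORD22 and SNORD28, which lie within it.

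A few of the genes of at least 500 kb that fell had at most 3 reads in every olaparib/CDDP library. FHIT, at a common fragile site and spanning 1500.0 kb, had 14, 9 and 25 reads with olaparib and 0 in all 3 olaparib/CDDP libraries, at least 5.02-fold lower by a floor of 3 reads per library. GPC6 had 3, 21 and 12 reads with olaparib and 0, 1 and 0 with olaparib/CDDP, PRKG1 had 18, 12 and 4 and 0, 2 and 0, and AFF2 had 19, 15 and 11 and 2, 1 and 0. WWOX, at another fragile site and overlapping MAF, read 76.6, 69.6 and 82.9 with olaparib and 24.8, 40.8 and 41.6 with olaparib/CDDP (log2 fold change -1.11 ± 0.29, adjusted p = 0.012), IMMP2L, which overlaps LRRN3, read 74.6, 93.4 and 76.9 with olaparib and 37.7, 32.3 and 38.8 with olaparib/CDDP (log2 fold change -1.15 ± 0.36, adjusted p = 0.039), and GMDS, which makes GDP-fucose, read 276, 264 and 218 with olaparib and 128, 92.9 and 121 with olaparib/CDDP (log2 fold change -1.15 ± 0.23, adjusted p = 0.0015). ACTG1, cytoplasmic actin and among the most abundant genes that fell, read 22938, 22345 and 17276 with olaparib and 12001, 9391 and 9803 with olaparib/CDDP (log2 fold change -1.0 ± 0.23, adjusted p = 0.0048).

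A few genes of the dose step had means that did not follow the order of dose. CYR61, a matricellular protein, had a mean of 222 with olaparib, 122 with 2 µM CDDP added and 266 with 4 µM (4 against 2 µM, limma log2 difference 1.12 ± 0.24, adjusted p = 0.013). F3, tissue factor, had means of 263, 175 and 428 (1.29 ± 0.14, adjusted p = 4.2e-07). GTPBP2 had means of 202, 152 and 374 (1.40 ± 0.31, adjusted p = 0.019). Its libraries at 2 µM read 190.0, 77.6 and 189, so the lower mean there came mainly from replicate 2. Whether the lower dose itself differed from olaparib alone in these 3 genes is not given, since the genes were chosen for the dose step.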
